A study of Mus musculus with 16 samples.

Results

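The genes of oxidative phosphorylation were followed across 6 Notch1 genotypes in endothelial cells of the mouse embryo. They were chosen by symbol: the Nduf genes of complex I, Sdha to Sdhd of complex II, the Uqcr genes of complex III, Cox4 to Cox8 of complex IV, and the Atp5 genes of the ATP synthase (complex V), with pseudogene symbols and Ndufa4l2 left out. The rule matched 84 of the 22096 gene symbols, and 79 of these had a mean level of at least 1 FPKM over the 16 libraries. FPKM corrects the fragments of a gene for the length of its transcript and for the mapped fragments of the library. By complex, 35 genes belonged to complex I, 4 to complex II, 8 to complex III, 14 to complex IV (with Ndufa4, now counted there) and 15 to complex V. A further 3 genes, Cox7a2l, Cox4nb and Atp5sl, matched by symbol but are not core subunits, and they are described apart.

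Endothelial cells carrying CD31 were sorted from whole mouse embryos at embryonic day 9.5 and their RNA was sequenced. The receptor Notch1 signals through its intracellular domain, which is cut free and acts in the nucleus. The groups were wild type (+/+, 3 libraries), heterozygous for a deleted allele (+/-, 3), heterozygous for vg, the V1744G change that leaves the released domain less stable (+/vg, 3), heterozygous for 12, a Notch1 allele that carries the Notch2 intracellular domain (+/12, 3), 12 over vg (12/vg, 1) and 12 over the deleted allele (12/-, 3). The labels name no Cre line and leave out how many embryos made up a library. They give endothelial development as normal in +/+, +/-, +/vg and +/12, called the 4 normal groups here, as partly disturbed in 12/vg and as disturbed in 12/-.

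The respiratory chain passes electrons from NADH (through complex I) and from succinate (through complex II) by way of complex III to oxygen at complex IV, and the proton gradient this builds drives ATP synthesis at complex V. Complex I and complexes III to V each also hold subunits encoded in mitochondrial DNA, which were not analysed here. Several complex IV and V subunits come as a common form and a second form that is restricted to some tissues or conditions, among them Cox4i1 and Cox4i2. Cox4i2 is known from lung and from cells at low oxygen.

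Aligned sequence was between 1.11 and 1.80 gigabases in 14 libraries, 0.189 in +/- replicate 2 and 0.262 in the 12/vg library. Library numbers fell into a low range (203 to 248, 9 libraries, with all of +/12, 12/vg and 12/-) and a high range (371 to 380, 7 libraries, with all of +/+). The labels name no batch, so library number and genotype cannot be told apart for +/+ against 12/-. On the scaled FPKM scale defined below, Notch1 was at 17.4 to 23.3 in +/+ and at 16.4 to 23.2 in +/-, so the deleted allele was not visible in these values. It was at 14.5 to 16.0 in +/12 and 15.4 to 19.7 in 12/-. Notch2, which shares sequence with the 12 allele, was at 2.67 to 3.31 in +/+ and at 3.39 to 4.37 in 12/-. In +/12 Notch2 was at 3.89 to 4.41 and in the 12/vg library at 4.28, so its higher level was not particular to 12/-.

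The promoters of the members were read first, since shared motifs are a feature that the symbol rule did not use. RefSeq windows of GRCm38.p6, from 250 bases before to 50 bases after each start, were at hand for 64 of the 79 genes. The 15 genes without a window include Cox4i1 and Cox4i2, so the motif counts say nothing of these 2 genes. A window holding the NRF1 motif CGCNTGCG on either strand was found for 25 of the 64 genes (39.1%). The share was 21.2% of the 7346 genes tested that had a window and 9.22% of all genes with a window. For the other motifs, the shares of genes tested are over the same 7346. NRF1 is a transcription factor long tied to nuclear genes of respiration. The motif was found in 9 of 13 genes of complex V, in 10 of 31 of complex I and in 1 of 11 of complex IV. The YY1 motif AAGATGGC was found in 9 genes (14.1%, against 5.83% of the genes tested), of which 7 belonged to complex I. Of its 9 matches, 8 began in the last 30 bases of the window, downstream of the start, where 29.9% of the matches of the genes tested lay. The ETS motif CCGGAAGT was found in 5 genes (7.81%, against 9.90%), the core of the hypoxia response element, ACGTG, in 15 (23.4%, against 30.4%), and the RBPJ motif TGGGAA, named for the DNA-binding partner of Notch, in 14 (21.9%, against 25.8%). A match describes the letters only and says nothing of binding. Each motif was searched on both strands and counted by itself, in any window of a gene, whether or not it overlapped another.

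Windows of 3 genes show the range, with capitals at matches to the NRF1, ETS or YY1 motifs. Ndufs6, a complex I subunit, holds an NRF1 and a YY1 match, Atp5k, the e subunit of the ATP synthase, holds 1 NRF1 match, and Cox7a1, the muscle form of a complex IV subunit, holds none of them.
Ndufs6, chr13:73328433-73328732, minus strand: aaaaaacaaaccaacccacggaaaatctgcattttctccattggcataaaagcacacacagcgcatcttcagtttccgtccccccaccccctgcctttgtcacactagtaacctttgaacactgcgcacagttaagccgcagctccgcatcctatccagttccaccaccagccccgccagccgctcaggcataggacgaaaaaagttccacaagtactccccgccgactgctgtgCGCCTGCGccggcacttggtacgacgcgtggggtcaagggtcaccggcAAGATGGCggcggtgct
Atp5k, chr5:108434350-108434649, minus strand: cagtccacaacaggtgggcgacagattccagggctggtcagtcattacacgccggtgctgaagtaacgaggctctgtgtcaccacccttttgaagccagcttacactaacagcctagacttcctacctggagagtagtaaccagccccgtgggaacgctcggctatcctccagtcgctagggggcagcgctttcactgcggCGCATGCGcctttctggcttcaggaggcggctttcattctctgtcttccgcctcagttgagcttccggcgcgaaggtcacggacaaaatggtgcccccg
Cox7a1, chr7:30183921-30184220, plus strand: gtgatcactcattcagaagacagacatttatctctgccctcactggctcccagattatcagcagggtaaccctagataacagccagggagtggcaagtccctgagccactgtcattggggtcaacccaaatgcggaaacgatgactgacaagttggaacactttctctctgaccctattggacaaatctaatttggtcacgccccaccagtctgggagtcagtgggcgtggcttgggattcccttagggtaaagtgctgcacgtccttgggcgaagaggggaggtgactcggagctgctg

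Oxidative phosphorylation genes were among the most abundant messages of these cells. Levels are given as scaled FPKM, the deposited FPKM divided by a factor per library, which may be compared between genes because it is per length. The mean over the 16 libraries ran from 1.44 for Cox4i2 to 803 for Atp5b, the catalytic beta subunit of the ATP synthase. The median gene was at 102 scaled FPKM, against 6.74 over the 10550 genes tested, and 60 of 79 were in the top 10% of genes by level. Complex V was the highest by its median gene (250), followed by complex IV (240), complex III (143), complex I (75.9) and complex II (57.0). Only 5 genes lay below 10: Cox4i2, Cox7a1 and Cox6b2, which are the restricted forms of complex IV subunits, and Cox4nb and Atp5sl, which are not subunits.

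In complex I the highest levels were those of the accessory subunits Ndufa2 (176) and Ndufa1 (168), and Ndufv2, an iron-sulfur subunit, was lowest at 13.3. In complex II, Sdhd, one of its membrane anchors, was highest at 86.1 and Sdha, the catalytic flavoprotein, lowest at 36.0. In complex III, Uqcrq stood at 428 and the Rieske iron-sulfur protein Uqcrfs1 at 25.7. In complex IV, Cox7c was at 584 scaled FPKM. Of the 79 genes, 34 had no transcript of 600 nt or more, and FPKM of such short messages depends more on the fragment length that the authors' software assumed. Close to the level limit, Cox4i2 (mean 1.47 FPKM) was inside and Atp5s (0.904 FPKM) outside. The forms Cox6a2, Cox7b2, Cox8b and Cox8c were also outside, and they were listed at 0 in 12, 9, 9 and 14 of the 16 libraries.

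**Figure D1:**
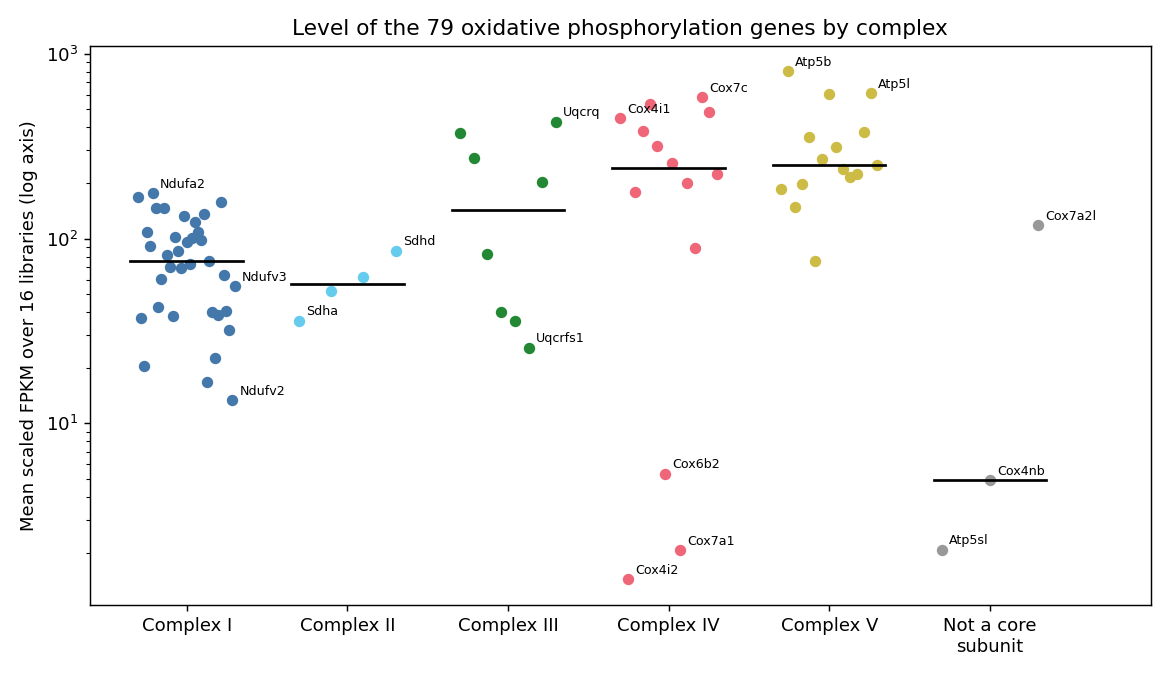
Mean scaled FPKM over 16 libraries (log axis) of each of the 79 genes, as points grouped by complex, with the median of each complex as a line. Complex V and complex IV have the highest medians (250 and 240), and Cox4i2, Cox7a1 and Cox6b2 lie below the rest of complex IV.

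In 12/- embryos Cox4i2, the restricted form of complex IV subunit 4, rose over the mean of the 4 normal groups, with a fitted log2 fold change of 1.49. That size depends on the pseudocount added to a low level: it was 0.64 with pseudocount 5 and 2.26 with 0.1, and the ratio of mean scaled FPKM was 4.90. None of the other 78 genes passed the test in either direction. Over the 79 genes, the median log2 fold change of 12/- against the mean of the 4 normal groups was -0.024, against -0.0050 over all genes tested, with 43 genes below 0 and 36 above. The medians were -0.0013 for complex I, -0.046 for complex II, -0.0048 for complex III, -0.04 for complex IV and -0.03 for complex V. Fold changes are on the log2(scaled FPKM + 1) scale, and the test was limma with Benjamini-Hochberg adjustment over 10550 genes and a call at an adjusted p under 0.05.

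By that test, 1 of 79 genes was called higher and 0 lower, where the background over all genes tested was 0.720% higher and 0.0664% lower. With no adjustment, 4 genes were higher and 1 lower at p under 0.05, against 6.56% and 4.97% of all genes tested. The 95% interval of the fold change lay within 1 log2 unit of 0 for 76 of 79 genes and within 1.5-fold for 56. For the catalytic Sdha the fold change was 0.0035, for Atp5b 0.11 and for Uqcrfs1 -0.06 on the log2 scale.

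**Figure D2:**
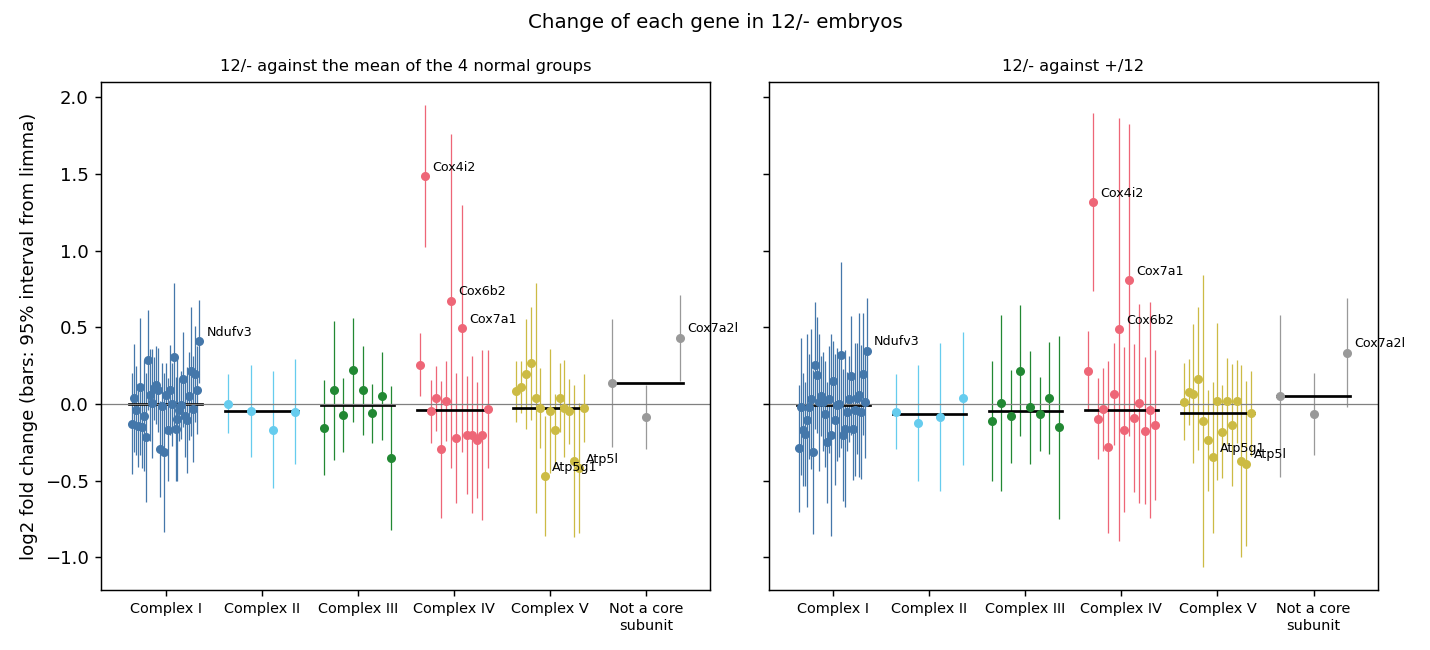
log2 fold change of each of the 79 genes in 12/- embryos, with 95% intervals from limma, against the mean of the 4 normal groups (left) and against +/12 (right), grouped by complex, with the median of each complex as a line. Nearly all points lie near 0, while Cox4i2 stands at 1.49 (left) and 1.32 (right).

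Cox4i2 lies on chromosome 2 at 152579909 to 152590773 (mm9) and was listed with 1 transcript of 727 nt. Its scaled FPKM was 0.95, 0.72 and 0.64 in +/+, 0.35, 0.89 and 0.43 in +/-, 0.49, 1.84 and 0.61 in +/vg, and 0.57, 1.21 and 1.37 in +/12. In 12/- it was 4.63, 2.93 and 4.75, and in the 12/vg library 0.61. All 3 libraries of 12/- were above all 12 normal libraries, and the 12/vg library lay among the normal ones. The means were 4.10 ± 1.02 (SD, n = 3) in 12/- and 0.838 ± 0.442 (SD, n = 12) in the normal groups. The log2 fold change was 1.49 ± 0.21 (SE), with a 95% interval from 1.03 to 1.95 and an adjusted p of 0.0037 by limma. Even in 12/- the message stayed far below the median gene of complex IV. Within the libraries of low number alone, a fit chosen after seeing the data, the log2 fold change was 1.48 with an adjusted p of 0.041 by limma. That fit pooled the 5 normal libraries of low number into 1 group, with all of +/12 and none of +/+. Against the mean of the 4 normal groups without 12/- replicate 1, the log2 fold change was 1.40. Its adjusted p was 0.057 by limma, which did not pass. The mean read depth over the Cox4i2 transcript was 7.60, 3.73 and 6.55 in 12/- and between 0.166 and 3.19 in the normal groups. In the shallow 12/vg library it was 0.152. The values of Cox4i2 in the normal groups therefore rest on few reads. The 12/vg value rests on fewer still and cannot show whether Cox4i2 was raised in that genotype.

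Cox4i2 passed the level limit only through the 12/- libraries: over the other 13 libraries its mean was 0.800 FPKM. The other 78 genes passed without them. Its count among the 79 genes is therefore a description and not support, and its own test was run again with no filter on level, where the adjusted p by limma was 0.0063. With no filter, the comparisons with single groups below gave adjusted p of 0.032 against +/+, 0.019 against +/-, 0.060 against +/vg and 0.11 against +/12 by limma, so the call against +/vg was lost.

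By single comparison, which all share the 12/- libraries, Cox4i2 was called against +/+ (log2 fold change 1.51, adjusted p = 0.024 by limma), against +/- (1.71, adjusted p = 0.011) and against +/vg (1.41, adjusted p = 0.040). Against +/12, the group that differs from 12/- by the second allele alone, it was 1.32 ± 0.27 (SE) with an adjusted p of 0.083, which did not pass. All +/+ libraries were of high number and all 12/- libraries of low number. With the number range as a covariate the fold against +/+ was 1.77 with an adjusted p of 0.20 by limma, and against +/vg 1.58 with 0.10, and neither was called. With pseudocount 0.1 in place of 1 these calls were lost too (adjusted p = 0.060 and 0.099 by limma). With only the groups compared in the fit, the calls against +/- and +/vg were lost (adjusted p = 0.13 and 0.16 by limma), and with quantile normalisation that against +/vg (adjusted p = 0.051 by limma). When 1 library was left out, the folds were 1.41 to 1.69 against +/+, 1.61 to 1.89 against +/- and 1.24 to 1.70 against +/vg, while some calls were lost. Against +/+ the call was lost without +/+ replicate 2 or 3 or 12/- replicate 1 or 3 (adjusted p from 0.088 to 0.15 by limma). Against +/- it was lost without 12/- replicate 1 or 3 (0.079 and 0.068), and against +/vg without +/vg replicate 1 or 3 or 12/- replicate 1 or 3 (0.12 to 0.22). Without +/- replicate 3, Cox7a2l was called as well against +/- (log2 fold change 0.80, adjusted p = 0.033 by limma). In the fits with all libraries no other of the 79 genes was called, against backgrounds in either direction of 0.597% of genes against +/+, 0.569% against +/-, 0.445% against +/vg and 0.209% against +/12. Whether the deleted allele had a larger effect beside 12 than beside + was tested as an interaction, chosen after seeing the data: Cox4i2 gave 1.52 ± 0.38 (SE) with an adjusted p of 0.39 by limma, and 0 of the 79 genes passed, against a background of 0.0474%.

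The common form, Cox4i1, was the more abundant by far and was not called. Its scaled FPKM was 359 to 497 in the 12 normal libraries with a median of 415, and 511, 497 and 526 in 12/-. The 12/- libraries were all above the normal ones, though the lowest of them (497.3) was almost level with the highest normal library (496.7). The log2 fold change was 0.26 ± 0.10 (SE) with an adjusted p of 0.32 by limma. Cox4i2 made up 0.793% ± 0.179 (SD, n = 3) of the summed Cox4i1 and Cox4i2 levels in 12/-, between 0.586% and 0.900%, and 0.194% ± 0.0963 (SD, n = 12) in the normal groups, between 0.0870% and 0.382%. An exact two-sided permutation test gave p = 0.0044, the smallest that 3 against 12 libraries allow, and 0.022 after adjustment over 5 pairs of forms. Of 8 pairs listed, 3 were not tested because a gene was below the level limit. The Cox4 pair was tested only because Cox4i2 passed that limit through the 12/- libraries. The p-values of the Cox4 pair are therefore a description and not support. The difference was 0.599 percentage points, and 0.546 to 0.702 when 1 library of 12/- was left out. With 2 libraries of 12/- the exact permutation p was 0.022, the smallest that design allows, and 0.11 after adjustment over the 5 pairs. Among libraries of low number alone, 3 against 5, the exact permutation p was 0.036, again the smallest possible, and 0.18 after adjustment. In both cases the design, with the p-values of the other pairs, sets the adjusted value, which therefore says nothing of stability.

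**Figure D3:**
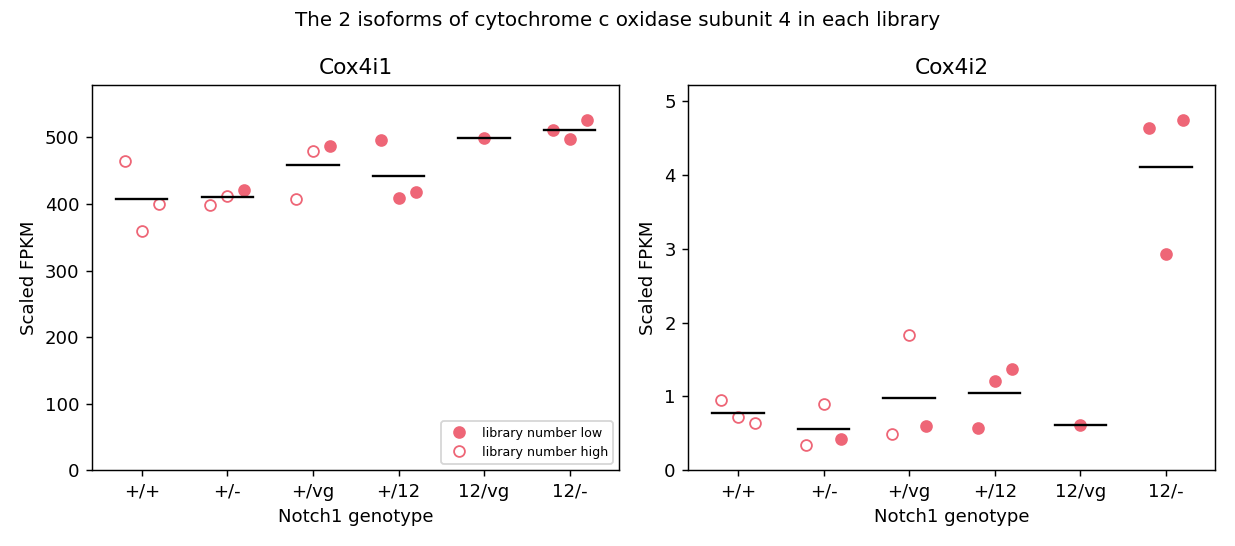
Scaled FPKM of Cox4i1 (left) and Cox4i2 (right) in each library by Notch1 genotype, with the group mean as a line, filled points for libraries of low number and open points for high number. Cox4i2 is at 2.93 to 4.75 in 12/- and at most 1.84 elsewhere, while Cox4i1 runs from 359 to 526 over all libraries.

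The other paired forms showed no called change in share. The share of Cox6b2, the testis form of subunit 6b, in its pair with Cox6b1 was 2.23% in 12/- and 1.51% in the normal groups (exact permutation p = 0.097, adjusted 0.16). The share of Cox7a1, the muscle form, in its pair with Cox7a2 was 1.62% and 1.07% (adjusted p = 0.31 by the same exact test). Of the Atp5g genes, which encode an identical mature c subunit of the ATP synthase, Atp5g1 made up 41.7% of its pair with Atp5g3 in 12/- and 46.8% in the normal groups (adjusted p = 0.16), and Atp5g2 66.8% and 64.8% (adjusted p = 0.34), all by exact permutation. Cox6b2 and Cox7a1 were listed at 0 in the shallow +/- replicate 2, and Cox7a1 also in the 12/vg library. Cox8a, a short complex IV message, stood at 1252 and 896 in these 2 libraries and between 327 and 478 in the other 14.

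Beyond Cox4i2, the members with the highest and lowest log2 fold changes in 12/- against the normal groups did not pass the test. Cox6b2 stood at a log2 fold change of 0.67 ± 0.50 (SE) and Cox7a1 at 0.49 ± 0.37 (SE). Atp5g1 was at -0.47 ± 0.18 (SE, adjusted p = 0.34 by limma), with 174, 241 and 193 scaled FPKM in 12/- and 219 to 446 in the normal libraries. The 446 was that of the shallow +/- replicate 2, and the other normal libraries reached at most 322. Atp5l, a membrane subunit of the ATP synthase, was at -0.42 ± 0.20 (SE, adjusted p = 0.44 by limma), with 366, 405 and 661 against 451 to 907. Atp5k, whose promoter is shown above, was at -0.37 ± 0.23 (SE, adjusted p = 0.58 by limma), with its highest normal value (765) again in +/- replicate 2. For each of these the libraries of 12/- and of the normal groups overlapped.

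Ndufv3 and Cox7a2l lay high in 12/- without passing. Ndufv3, an accessory subunit of the NADH-binding arm of complex I, was at 64.1, 65.8 and 79.8 in 12/- and at 41.1 to 62.8 in the normal libraries, a log2 fold change of 0.41 ± 0.12 (SE, adjusted p = 0.20 by limma). Cox7a2l, a factor of the supercomplex of complexes III and IV, was at 164, 138 and 149 in 12/- and at 76.7 to 139 in the normal libraries, 0.43 ± 0.13 (SE, adjusted p = 0.18 by limma). With Cox4i1 and Cox4i2, Ndufv3 made 3 genes whose 12/- libraries were all above the 12 normal ones, where the background was 1.91% of genes tested, and 0 genes were below, where it was 0.929%. Against the 5 normal libraries of low number, the same 3 genes were above (background 4.71%) and 0 below (background 4.09%). Cox4i2 is a member only through its level in 12/-. Its place in both counts is therefore a description and not support.

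The 3 groups with 1 changed allele held no called member against +/+, and no gene at all was called in these comparisons (0 of 10550, background 0.0% in each, by limma). An unadjusted p under 0.05 was reached by 3 members in +/- (7.52% of genes tested), 3 in +/vg (7.51%) and 2 in +/12 (5.36%). Among them, Ndufa2 was at -0.52 ± 0.16 (SE) in +/vg and at -0.42 ± 0.16 (SE) in +/12, and these comparisons share the +/+ libraries. The median over the 79 genes was -0.02 in +/-, -0.13 in +/vg and -0.0019 in +/12. In +/vg, 55 genes were below 0 and 24 above, and the median over all genes tested was 0.01. This rested on 1 library on each side: without +/vg replicate 1 the median was -0.03, and without +/+ replicate 3 it was -0.05.

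Library by library, the median deviation of the 79 genes from their means was lowest in +/vg replicate 1 (-0.21 log2) and highest in +/+ replicate 3 (0.13). In +/vg replicate 1 complexes I, II, III and IV were all at their lowest, and complex V was lowest in 12/- replicate 1 (-0.14). The 12/- libraries ran from -0.07 to 0.07 in this measure, inside the range of the normal libraries. In summed scaled FPKM, complex I reached 2842 ± 143 (SD, n = 3) in 12/- and 2880 ± 245 (SD, n = 12) in the normal groups. Complex V reached 4609 ± 296 (SD, n = 3) and 4905 ± 449 (SD, n = 12), and complex IV 3429 ± 94.8 (SD, n = 3) and 3743 ± 525 (SD, n = 12). The shallow +/- replicate 2 had the highest sums of these 2 complexes, 5901 and 5084. The medians of the normal libraries were 4832 for complex V and 3627 for complex IV.

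**Figure D4:**
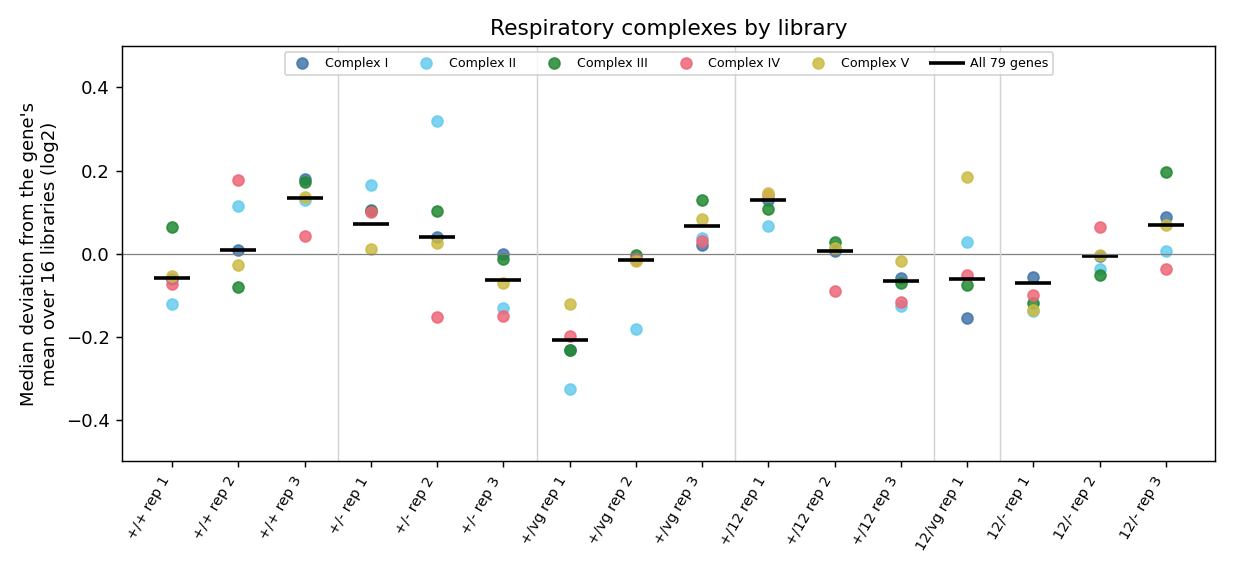
Median deviation (log2) of the genes of each complex from their mean over 16 libraries, one column per library, with the median over all 79 genes as a bar. The 12/- libraries lie between -0.07 and 0.07 for all genes, and +/vg replicate 1 is lowest at -0.21.

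As a share of all summed FPKM, the 79 genes took 2.96% ± 0.092 (SD, n = 3) in 12/- and 3.30% ± 0.197 (SD, n = 12) in the normal groups, with ranges of 2.86% to 3.02% and 3.02% to 3.54% that meet. This share also depends on the most abundant other genes of a library. Within groups, the SD of a member on the log2 scale had a median of 0.23, against 0.24 over all genes tested, with Atp5b the steadiest at 0.086 and Cox6b2 the most variable at 0.88. Members with no transcript of 600 nt or more had a median fold change of -0.09 in 12/- and the longer ones of 0.0043.

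The lists of genes that build or feed the respiratory chain lay near the background of 0.720% higher and 0.0664% lower, at which lists of this size would hold few or no calls. In 12/- against the normal groups, 0 of 42 assembly factors, 0 of 18 genes of the TCA cycle, 0 of 76 mitochondrial ribosome genes and 0 of 13 regulators of mitochondrial biogenesis were called, with medians of 0.01, 0.06, 0.02 and -0.05 on the log2 scale. The regulators Nrf1, Gabpa and Yy1, whose motifs were searched above, were at 0.05, -0.10 and 0.09. The electron carrier Cycs, the complex III and complex I subunits Cyc1 and Ndufab1, and Atpif1, an inhibitor of the ATP synthase, which the symbol rule missed, gave 0 calls of 4 and a median of -0.05.

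Genes of glycolysis were looked at beside them, with a list of genes known to be induced at low oxygen. That list is called the mitochondrial hypoxia genes here, although Mxi1 in it does not encode a mitochondrial protein. Of 14 glycolytic genes, 8 were higher in 12/- (Pgam1, Pkm2, Aldoa, Gpi1, Pfkl, Pfkp, Pgk1 and Tpi1), and the median was 0.90. Of 9 mitochondrial hypoxia genes 5 were higher, with a median of 0.69. These were the mitophagy receptors Bnip3 (2.68 ± 0.24, SE, adjusted p = 6.36e-05 by limma) and Bnip3l (0.69), with Ndufa4l2 (2.28), Fam162a (1.16) and Mxi1 (0.64). Leaving out Ndufa4l2, which was tested only because of its level in 12/-, 4 of 8 were higher with a median of 0.67. Against +/12, 3 of 14 and 3 of 9 were called, where the background in either direction was 0.209% of genes tested. The 3 of 9 were Bnip3, Fam162a and Ndufa4l2. The place of Ndufa4l2 in that count is a description and not support, as it was tested only because of its level in 12/-. Both lists were chosen knowing that glycolytic and hypoxia genes were high here.

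Ndufa4l2, a relative of the complex IV subunit Ndufa4 that was left out by rule, was at 6.61, 4.76 and 4.79 in 12/- and at most 1.08 in the normal libraries. Ndufa4 itself was at 212, 244 and 203 in 12/- and at -0.03 on the log2 fold scale. Like Cox4i2, Ndufa4l2 reached the level limit only through the 12/- libraries: its mean over the other 13 was 0.299 FPKM.

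**Figure D5:**
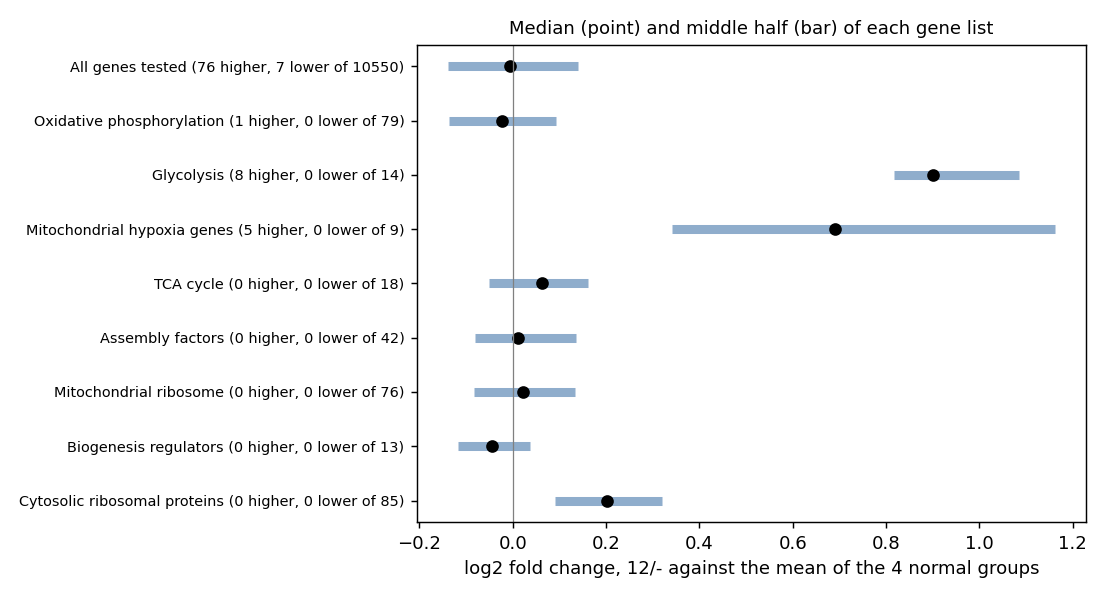
Median (point) and span from the lower to the upper quartile (bar) of the log2 fold changes of each gene list in 12/- against the mean of the 4 normal groups, with the genes called higher and lower in the row labels. Glycolysis (0.90) and the mitochondrial hypoxia genes (0.69) lie apart from the oxidative phosphorylation genes (-0.02).

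Factors reported to bind the oxygen-responsive element of the Cox4i2 promoter were looked up after the values were seen. Cxxc5 was at 13.9 to 19.1 scaled FPKM in 12/- and at 8.90 to 12.4 in the normal libraries. Its log2 fold change was 0.62 ± 0.10 (SE, adjusted p = 0.0071 by limma). By single group it was called against +/12 (0.75, adjusted p = 0.0255 by limma) and +/vg (0.73, adjusted p = 0.021 by limma). It was not called against +/+ (0.51, adjusted p = 0.11 by limma) or +/- (0.50, adjusted p = 0.13 by limma). Rbpj was at -0.03 and Chchd2 at -0.11, and neither was called. Whether a factor is reported to raise or to lower Cox4i2 was not considered. The part of these factors in the Cox4i2 level was not tested.

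In a sorted bulk sample fewer cells of a type and less RNA per cell cannot be told apart. Cox4i2 is also known from mural cells, so their markers are given beside it. Summed mural markers were at 20.8 to 24.8 scaled FPKM in 12/- and 14.4 to 29.6 in the normal libraries, none of the 9 was at 0 in all 3 libraries of 12/-, and 0 of the 5 tested were called. Summed cardiomyocyte markers (14 genes, 8 tested, 0 called) were at 34.1 to 46.7 and 21.6 to 90.5. Summed endothelial markers were at 1088 to 1293 and 926 to 1112, with 1 of 12, Flt1, called higher. Erythroid markers were at 83.4 to 341 and 98.0 to 244, platelet markers at 357 to 1506 and 247 to 1976, and macrophage markers at 3.05 to 6.70 and 2.54 to 7.18, with C1qb at 0 in all 3 libraries of 12/-. No list but the endothelial one held a called gene, and the part of these markers in the levels above was not tested.

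Genes whose loci overlap another gene have uncertain FPKM where reads could be split. This holds for 8 of the 79 genes, among them Atp5b, Atp5j and Ndufa13, and not for Cox4i2. Atp5g1, Atp5g2 and Atp5g3 resemble one another in sequence, so their values can also be shared between copies.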

How the data were processed

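RNA was measured in 16 libraries of 6 genotypes. The authors deposited 1 table per library with FPKM, coverage and a status per RefSeq transcript, in cufflinks layout, per the file headers. The submitters' processing notes name TopHat2 2.0.9 and mm9. Not given in the sources used here are read length, strandedness and the cufflinks version. The deposited coverage signal, the mean read depth of a transcript, was used only for depth, as coverage divided by FPKM.

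Transcript FPKM were summed per symbol (Python 3.11.15, pandas 2.3.3, scipy 1.17.1). Symbols with a status other than OK (211, no member) were left out of the tests, and libraries were scaled by median ratios over 8638 genes with at least 1 FPKM everywhere. The 10550 genes with a mean of at least 1 FPKM were fitted as log2(scaled FPKM + 1), all 16 libraries in 6 groups, with limma 3.58.1 in R 4.3.3 (trend, two-sided, Benjamini-Hochberg). The script was tested on simulated data. There were 8 comparisons, and the shares of 5 form pairs were compared by exact permutation. Members and lists were chosen with earlier results of these data known. As no label ties a library to separate embryos, the p-values cover the library-to-library spread only, and this may be technical.

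Named were the called members, the 3 highest and 3 lowest log2 folds against the normal groups and +/12, the form pairs and the 2 highest genes per complex; members outside it were chosen after their values were seen. Alternatives were other scalings, pseudocounts, filters and weights, a covariate for library number, leaving out shallow libraries and each replicate, and libraries of low number only, the last chosen after seeing the data.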

Additional observations from a re-analysis of the deposited data

How the results depend on the processing

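No paired analysis was possible because the labels number the libraries 1 to 16 and give no replicate number that groups share. The call of Cox4i2 against the mean of the 4 normal groups held in 26 of 27 alternatives, with log2 fold changes from 0.64 (pseudocount 5) to 2.26 (pseudocount 0.1). The alternative with low library numbers only is counted there, although it used pooled normal libraries without +/+ in place of that mean. The call was lost without 12/- replicate 1 (adjusted p = 0.057 by limma). The count of called members is 0 there and with a mean of at least 5 FPKM, where Cox4i2 is not tested. Against +/+ it was called in 11 of 17 alternatives, against +/- in 14 of 17, against +/vg in 8 of 17 and against +/12 in 2 of 18.

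Counts of called members became 0 against +/+ with the library number covariate, a mean of at least 5 FPKM and pseudocount 0.1, against +/- with a mean of at least 5 FPKM and only the groups compared, and against +/vg with that covariate, that filter, no filter, only the groups compared, pseudocount 0.1 and quantile normalisation. Against +/12 the count became 1 with array weights and with pseudocount 5. Leaving out 1 replicate gave 0 to 1 members against +/+, 0 to 2 against +/-, 0 to 1 against +/vg and 0 to 1 against the normal groups. The 2 against +/-, without +/- replicate 3, were Cox4i2 and Cox7a2l. The cause was not tested.

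With no scaling, the median member was at 0.12 against +/12 and 0.17 against +/vg, while all genes tested shifted to 0.11 and 0.08. The Cox4i2 share differed by 0.601 percentage points among low library numbers and by 0.546 to 0.702 without 1 replicate of 12/-, where its p was the smallest that number of libraries allows and its adjusted p was over the threshold. Uncalled folds near 0 changed sign: Atp5b to -0.17 and Cox6b1 to -0.045 under quantile normalisation, Atp5g2 to 0.031 (array weights), 0.088 (covariate), 0.028 (low numbers), 0.036 (no scaling) and 0.043 (without shallow libraries), Cox6b1 to -0.027 and Cox8a to 0.098 (covariate), Ndufa2 to 0.0094 and Sdhd to 0.00023 (low numbers), and Sdhd to 0.031 (no scaling). Leaving out 1 replicate gave -0.093 to 0.043 for Atp5g2, -0.018 to 0.092 for Cox6b1 and -0.11 to 0.0097 for Sdhd. Depth limits Cox4i2, Cox6b2 and Cox7a1 in the shallow libraries.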
